A study of Mus musculus with 5 samples.

Results

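The 8 genes of the troponin complex were followed through the RNA of embryonic mouse heart ventricles, where they were 8 of the 18307 genes of the RefSeq gene table. They were taken by symbol: the troponin T genes Tnnt2, Tnnt1 and Tnnt3, the troponin I genes Tnni1, Tnni3 and Tnni2, and the troponin C genes Tnnc1 and Tnnc2. Their transcripts were 26 of the 25187 in the RefSeq transcript table. Troponin sits on the thin filament of striated muscle and makes contraction depend on calcium. Troponin C binds the calcium, troponin I holds actin and myosin apart until it does, and troponin T ties the complex to tropomyosin. The embryonic heart is known to use slow skeletal troponin I, encoded by Tnni1, before cardiac troponin I, encoded by Tnni3, takes its place after birth, and to include an acidic exon of Tnnt2 that the adult heart leaves out.

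The study asked which genes differ in the embryonic heart after caffeine, an antagonist of adenosine receptors. Both groups were CD-1 embryos, an outbred strain with no altered gene, and ventricles were taken at E10.5. In the caffeine group the dams were given daily injections of 20 mg/kg caffeine, the first at E6.5 and the last at E9.5 (3 libraries), and in the vehicle group the dams received 0.9% NaCl on the same days (2 libraries). Each library was a pool of ventricles from embryos that shared dams, counted by the submitters as 1 sample, so p-values measure the spread between such pools.

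Library totals on the RefSeq genes lay between 21713381 and 23530555 counts in caffeine libraries, and were 25048134 and 22397199 counts in vehicle libraries. The troponin genes took 0.415% to 0.509% of the counts in caffeine libraries, and 0.572% and 0.478% in vehicle replicates 1 and 2. Vehicle replicate 1 was the highest library for 6 of the 8 members, and the fold change of each tested troponin gene is given with and without it. The cardiomyocyte genes that define ventricle muscle were abundant in all 5 libraries: Myh7 had at least 6957 CPM (counts scaled to TMM-adjusted library sizes) and Actc1 at least 10322 CPM. The muscle-lineage factors that define skeletal muscle, Myod1, Myf5 and Myog, had at most 0.0831 CPM. Mylpf, a fast myosin light chain also set as a defining skeletal muscle marker, had 12.4 to 33.2 CPM.

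A group of 4 members made up nearly all of the troponin RNA. In CPM per kilobase of transcript, which allows levels to be set beside each other between genes, Tnnt2 averaged 1667 ± 319, Tnni1 1398 ± 117, Tnnc1 1145 ± 189 and Tnni3 439 ± 80.2 (SD, n = 5 libraries of both groups). Far below them, Tnnt1 averaged 68.3 ± 26.6, Tnni2 10.5 ± 3.08, Tnnt3 4.23 ± 1.78 and Tnnc2 0.171 ± 0.0757 CPM per kilobase. The top of this order was not clear-cut: Tnnt2 exceeded Tnni1 in 4 of 5 libraries and Tnni1 exceeded Tnnc1 in 5 of 5, with ranges that overlapped in both cases. The length used was that of each gene's longest matched transcript, 1105 bases for Tnni1. Its shorter transcript, NM_001112702, has 749 bases and held 59.0% to 72.3% of the gene's counts. This length therefore understates Tnni1, and the order of Tnnt2 and Tnni1 depends on that choice. From Tnnc1 down to Tnnc2, each gene exceeded the next in 5 of 5 libraries and no neighbouring ranges overlapped. So the cardiac forms of troponin T and C led their families, whereas in troponin I the slow skeletal form led the cardiac one.

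**Figure D1:**
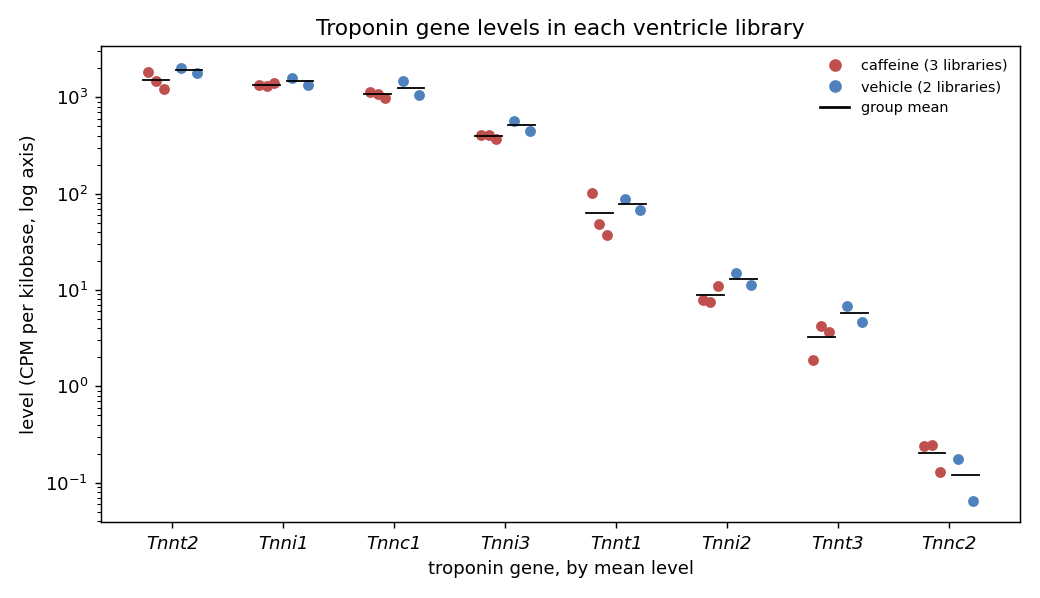
Level of each troponin gene in CPM per kilobase (log axis), with 1 point per library and a line at the group mean, caffeine in red and vehicle in blue. Tnnt2, Tnni1 and Tnnc1 lie close together near the top, Tnni3 lies below them, and Tnnc2 lies below 1 CPM per kilobase in all 5 libraries.

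No troponin gene passed the test between caffeine and vehicle. Of the 8 genes, 7 had enough counts to be tested and 0 passed a false discovery rate of 0.05 (FDR 0.05) by edgeR's quasi-likelihood test, adjusted over the 13829 genes tested, of which 0.00723% passed. DESeq2 and limma-voom also called 0 troponin genes. The fitted log2 fold changes (caffeine minus vehicle) were negative for 7 of 7 tested members, with a median of -0.34, against 47% of all genes and a median of 0.01. At an unadjusted p under 0.05 there were 3 members by edgeR (5.2% of all genes), all of them lower in caffeine (2.07% of all genes). There were 4 members by DESeq2 and 4 by limma-voom, where 627 and 722 of the 13829 genes had such a p. In 3 members, Tnni3, Tnni2 and Tnnt3, every caffeine library lay below both vehicle libraries, which was so for 9.27% of all genes. In 0 tested members did every caffeine library lie above both vehicle libraries (11.2% of all genes). The members are not independent of each other, since most are expressed in the same muscle cells and were measured in the same 5 libraries. In these bulk samples fewer muscle cells and less troponin RNA per cell cannot be told apart.

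The negative signs leaned on vehicle replicate 1. Relative to each gene's mean over the 5 libraries, the median member stood at -0.06, -0.11 and -0.22 on the log2 scale in the caffeine libraries, against 0.40 and 0.08 in vehicle replicates 1 and 2. Without vehicle replicate 1, 5 of 7 members had a negative fold change (48.1% of all genes) and the members' median was -0.19. Without vehicle replicate 2, 7 of 7 were negative (49.4% of all genes) and the members' median was -0.51. Each of these fits has 1 vehicle library, which is assumed to vary like the others.

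**Figure D2:**
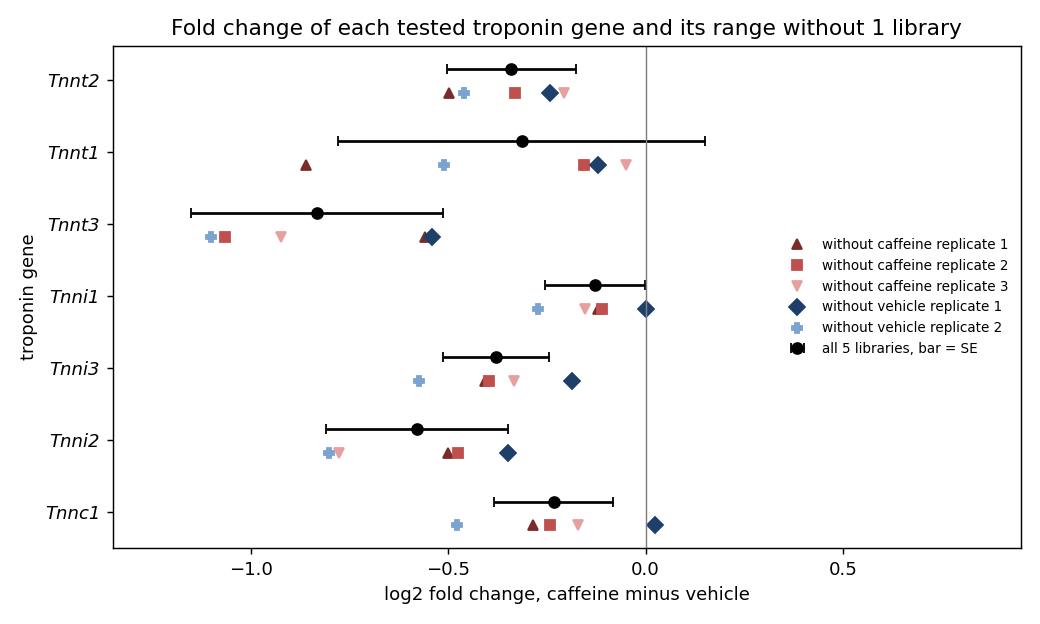
Fitted log2 fold change (caffeine minus vehicle) of the 7 tested troponin genes, with a black point and SE bar for all 5 libraries and coloured symbols for fits that leave out 1 library. The black points are all below 0, and without vehicle replicate 1 Tnni1 and Tnnc1 sit at 0.00070 and 0.024.

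Tnnt2 encodes cardiac troponin T and lies at chr1:135836334-135852268 on the plus strand of mm10. It had 2181, 1784 and 1457 CPM in the caffeine libraries, against 2441 and 2137 CPM in the vehicle libraries. Caffeine replicate 1 lay between the vehicle libraries, so the groups overlapped. The log2 fold change was -0.34 (SE 0.16, edgeR adjusted p = 0.980). Without caffeine replicate 3, the lowest library, it was -0.21, without caffeine replicate 1 it was -0.50, and without vehicle replicate 1 it was -0.24.

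The 9 Tnnt2 transcripts in the table differ at their 5′ end by alternative exons, 1 of them a 30-base exon at chr1:135843785-135843814 on the plus strand (mm10). The 4 sequences below show that stretch in the GENCODE M21 transcripts matched to the 9 RefSeq transcripts, because the transcript values turn on which exons are joined. Capitals mark the 30-base exon, and the lower-case letters are 20 bases of the exons joined on either side.
Tnnt2-209: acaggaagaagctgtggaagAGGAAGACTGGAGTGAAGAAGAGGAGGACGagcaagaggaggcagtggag
Tnnt2-204: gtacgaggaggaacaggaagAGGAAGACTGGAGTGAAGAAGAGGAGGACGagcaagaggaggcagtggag
Tnnt2-212: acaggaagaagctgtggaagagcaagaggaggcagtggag
Tnnt2-211: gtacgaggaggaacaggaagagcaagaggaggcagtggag
NM_001130174, NM_001130175 and NM_001130177 were all matched to Tnnt2-209 and NM_001130176 to Tnnt2-204, which hold it. The other 5 transcripts were matched to Tnnt2-212 and Tnnt2-211, which do not. Because several RefSeq transcripts share 1 GENCODE model, the match is not one to one.

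Transcripts with the exon held most of the Tnnt2 counts in every library. Their summed share was 63.2%, 67.1% and 57.4% in the caffeine libraries, against 70.2% and 64.7% in the vehicle libraries. Caffeine replicate 3 was lowest and vehicle replicate 1 highest, and the groups overlapped. The grouping was chosen after the values were seen, so it was given no test. In CPM, the transcripts with the exon summed to 1377, 1193 and 836 in caffeine and 1711 and 1377 in vehicle, and those without it to 801, 585 and 621 in caffeine and 725 and 750 in vehicle.

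Of the 26 troponin transcripts 20 could be tested, and 0 passed FDR 0.05 by edgeR over the 18418 transcripts tested, of which 0% passed. Log2 fold changes were negative in 14 of the 20 (46.9% of all transcripts). An unadjusted p under 0.05 was reached by 3 of them (7.36% of all transcripts), NM_001130175 of Tnnt2, NM_001112702 of Tnni1 and NM_009406, the only Tnni3 transcript in the table (-0.38, and -0.18 without vehicle replicate 1). Among the Tnnt2 transcripts, NM_001130175, with the exon, had the smallest p of the 9. It had 154, 122 and 82.3 CPM in caffeine, against 180 and 185 CPM in vehicle, so every caffeine library was below both vehicle libraries (11% of all transcripts tested). Its log2 fold change was -0.61 (SE 0.23, edgeR adjusted p = 0.629). NM_001130174, also with the exon, was likewise below both vehicle libraries in every caffeine library. It had 363, 346 and 232 CPM in caffeine, against 490 and 370 CPM in vehicle (-0.45, SE 0.21, edgeR adjusted p = 0.722). The groups overlapped for NM_001130177 (-0.49) and NM_001130176 (-0.32), with the exon, and for NM_001130179 (0.30) and NM_001130181 (0.30), without it. NM_011619, without the exon and the most abundant single transcript, had 742, 545 and 573 CPM in caffeine and 684 and 713 CPM in vehicle, which overlap. A pair of minor transcripts without the exon lay above both vehicle libraries in every caffeine library (12.2% of all transcripts tested). They were NM_001130178 (0.35, SE 0.21, edgeR adjusted p = 0.816) and NM_001130180 (0.36, SE 0.18, edgeR adjusted p = 0.766), each under 2% of the gene. Their counts kept 1 ratio within 1% in all 5 libraries, as did those of NM_001130179 and NM_001130181, so within each of these pairs the split comes from read assignment and was not measured separately. A usage test across the 9 transcripts (edgeR's diffSpliceDGE F test over 2897 genes, 3.07% of which passed) gave an adjusted p of 0.476.

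**Figure D3:**
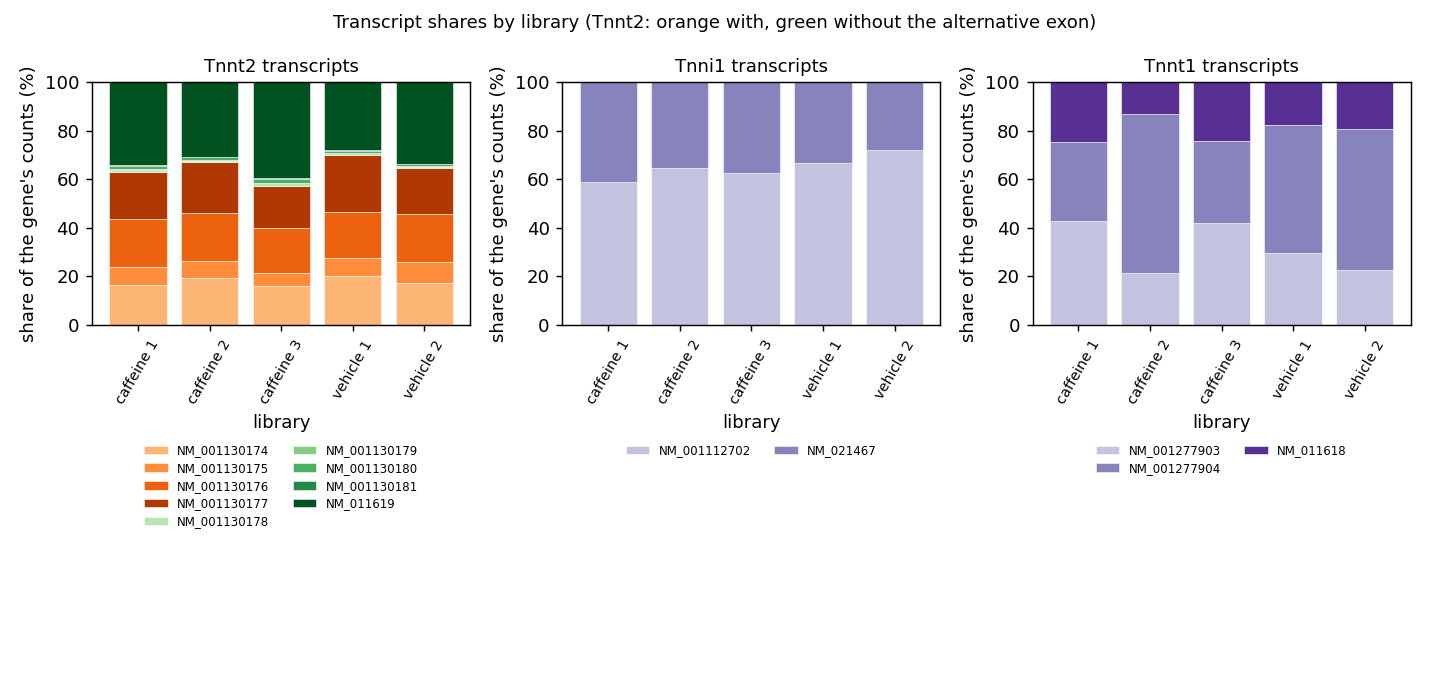
Share of each gene's counts (%) by transcript in each library for Tnnt2, Tnni1 and Tnnt1, caffeine libraries on the left of each panel. For Tnnt2, orange bars are transcripts with the 30-base exon, which sum to 57.4% to 70.2%, and green bars are those without it. The lower bar of Tnni1, NM_001112702, is shorter in the 3 caffeine libraries than in both vehicle libraries.

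Tnnt1 encodes slow skeletal troponin T, at chr7:4504570-4515975 on the minus strand. Its libraries differed widely, with 107, 50.8 and 39.5 CPM in caffeine libraries, against 92.3 and 71.6 CPM in vehicle libraries. Caffeine replicate 1 was the highest of all 5 libraries and the other two caffeine libraries the lowest, so the groups overlapped. The log2 fold change was -0.31 (SE 0.46, edgeR adjusted p = 0.999). Its size depended on single libraries: it was -0.86 without caffeine replicate 1, -0.16 without caffeine replicate 2, -0.05 without caffeine replicate 3, -0.12 without vehicle replicate 1 and -0.51 without vehicle replicate 2. The edgeR adjusted p was 0.0558 without caffeine replicate 1, the lowest of any member in any alternative, and ran up to 1.00 over the 15 alternatives.

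The 3 Tnnt1 transcripts divided the gene unevenly between libraries. NM_001277904 held 32.6%, 65.4% and 33.8% of the counts in caffeine, against 52.7% and 57.9% in vehicle. Caffeine replicate 2 was above both vehicle libraries and the other two below them, and the usage test gave an edgeR adjusted p of 0.834. In CPM this transcript had 34.97, 33.1 and 13.4 in caffeine and 48.5 and 41.3 in vehicle (log2 fold change -0.72, SE 0.36, edgeR adjusted p = 0.754). The signs of the other two, NM_001277903 (0.17, SE 0.56) and NM_011618 (-0.08, SE 0.52), depended on single libraries.

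Tnnt3, for fast skeletal troponin T, lies at chr7:142498836-142516009 on the plus strand and was scarce. It had 49, 105 and 86 counts in caffeine libraries, against 178 and 111 counts in vehicle libraries. In CPM these were 2.03, 4.51 and 3.90 in caffeine and 7.33 and 5.06 in vehicle, so the groups did not overlap. Its log2 fold change was -0.83 (SE 0.32, unadjusted p = 0.0237, edgeR adjusted p = 0.924), and -0.54 without vehicle replicate 1. With the replicate number as a block it was -0.98 with an adjusted p of 0.0828. The gene Gm14492 overlaps Tnnt3 on the opposite strand and had 1.080, 1.46 and 1.13 CPM in caffeine, against 0.741 and 0.501 CPM in vehicle. Whether counting used strand is not given in the sources used here, so the counts of the overlapping pair are uncertain. The table lists 8 Tnnt3 transcripts, but all 21 pairs among those with a mean of at least 1 count kept a ratio constant within 1% over the 5 libraries. Their shares therefore come from read assignment and are not a measurement of isoforms.

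Tnni1 encodes slow skeletal troponin I and lies at chr1:135799421-135810989 on the plus strand. It was the steadiest member, with 1477, 1452 and 1540 CPM in caffeine, against 1768 and 1487 CPM in vehicle. Vehicle replicate 1 stood above the other 4 libraries, among which the groups overlapped. The log2 fold change was -0.13 (SE 0.13, edgeR adjusted p = 0.999), and it was 0.00070 without vehicle replicate 1.

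The 2 Tnni1 transcripts start 90 bases apart and did not keep 1 ratio between libraries. NM_001112702, from the downstream start, held 59.0%, 64.7% and 62.7% of the counts in caffeine, against 66.8% and 72.3% in vehicle. NM_021467, from the upstream start, held the rest: 41.0%, 35.3% and 37.3% in caffeine, against 33.2% and 27.7% in vehicle. The shares of the groups did not overlap. The usage test gave an unadjusted p of 0.0598 and an edgeR adjusted p of 0.308, so the shift did not pass, and its adjusted p ran between 0.235 and 0.845 over the alternatives. By level, NM_001112702 had 870, 937 and 965 CPM in caffeine and 1178 and 1071 CPM in vehicle (log2 fold change -0.28, SE 0.11, edgeR adjusted p = 0.650). NM_021467 had 605, 510 and 575 CPM in caffeine and 586 and 410 CPM in vehicle (0.18, SE 0.17, edgeR adjusted p = 0.927), and its sign turned to -0.08 without vehicle replicate 2.

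Tnni3, for cardiac troponin I, at chr7:4518308-4522443 on the minus strand, had the smallest p of the members. It had 372, 366 and 335 CPM in caffeine libraries, against 523 and 407 CPM in vehicle libraries. All 3 caffeine libraries lay below both vehicle libraries. The mean was 358 ± 20.0 CPM in caffeine (SD, n = 3) and 465 ± 82.3 CPM in vehicle (SD, n = 2). The log2 fold change was -0.38 (SE 0.14, unadjusted p = 0.0156), and after adjustment over all genes by edgeR p was 0.889. It was -0.19 without vehicle replicate 1 and -0.58 without vehicle replicate 2, so the size depended on which vehicle library was used.

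Tnni2 encodes fast skeletal troponin I, at chr7:142442468-142444405 on the plus strand. It had 138, 128 and 179 counts in caffeine libraries, against 268 and 180 counts in vehicle libraries. In CPM these were 5.73, 5.50 and 8.12 in caffeine and 11.04 and 8.20 in vehicle, so caffeine replicate 3 and vehicle replicate 2 nearly met. The log2 fold change was -0.58 (SE 0.23, unadjusted p = 0.0268, edgeR adjusted p = 0.930), and -0.35 without vehicle replicate 1. With the replicate number as a block it was -0.76 with an adjusted p of 0.139.

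Tnnc1, for the troponin C shared by heart and slow skeletal muscle, lies at chr14:31208312-31211711 on the plus strand. It had 827, 783 and 704 CPM in caffeine, against 1056 and 758 CPM in vehicle. Vehicle replicate 2 fell among the caffeine libraries and vehicle replicate 1 stood above them. The log2 fold change was -0.23 (SE 0.15, edgeR adjusted p = 0.999), and 0.024 without vehicle replicate 1. Tnnc2, for fast skeletal troponin C at chr2:164777162-164779734 on the minus strand, had 4, 4 and 2 counts in caffeine and 3 and 1 in vehicle. It was too low to test, and the Ensembl gene table rounded to 0 counts in all 5 libraries.

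Shares within a subunit family do not depend on scaling between libraries. Of troponin I by CPM per kilobase, Tnni3 held 23.3%, 23.3% and 20.7% in caffeine libraries, against 26.2% and 24.7% in vehicle libraries. The groups did not overlap, and the difference, caffeine minus vehicle, was -3.04 percentage points. The two-sided exact permutation p was 0.2 (0.5 after adjustment over the 5 shares tested), and 0.2 is the smallest p that 3 against 2 libraries can give. Leaving out 1 library moved the difference between -3.78 and -2.18 points. By counts without length the difference was -2.75 points. The size of the Tnni3 share also depends on the length used for Tnni1, which was that of its longer transcript and raises the share of Tnni3. Tnni1 held most of the rest, at 77.1% ± 1.38 in caffeine (SD, n = 3) and 73.9% ± 1.09 in vehicle (SD, n = 2).

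The other minor forms overlapped between the groups or rested on a few counts. Tnni2 held 0.503% ± 0.107 of troponin I in caffeine and 0.655% ± 0.0480 in vehicle (exact permutation p = 0.4, adjusted 0.667). Tnnt1 held 3.79% ± 1.29 of troponin T in caffeine and 3.87% ± 0.316 in vehicle (exact permutation p = 1, adjusted 1). Tnnt3 held 0.219% ± 0.105 of troponin T in caffeine and 0.286% ± 0.0471 in vehicle (exact permutation p = 0.6, adjusted 0.75). Tnnc2 held 0.0189% ± 0.00492 of troponin C in caffeine and 0.00912% ± 0.00415 in vehicle (exact permutation p = 0.2, adjusted 0.5), on 1 to 4 counts a library. All of these are means ± SD over 3 caffeine and 2 vehicle libraries.

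**Figure D4:**
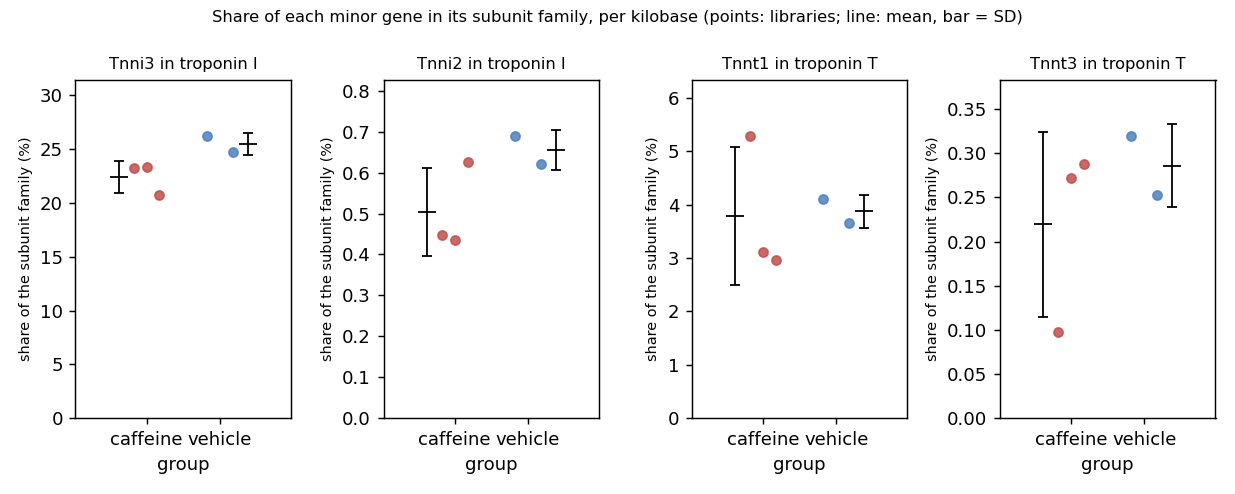
Share (%) of troponin I or troponin T, by CPM per kilobase, held by each minor gene, with 1 point per library and the group mean with an SD bar, caffeine left of vehicle. Only in the Tnni3 panel do the 2 groups not overlap, with caffeine between 20.7% and 23.3% and vehicle at 24.7% and 26.2%.

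Summed over each family, troponin T and troponin I stood at similar levels and troponin C lower, in CPM per kilobase. The sums use the length of each gene's longest matched transcript, which understates Tnni1. How near troponin T and troponin I stood therefore depends on that choice. Troponin T over troponin I was 1.10, 0.893 and 0.709 in caffeine libraries, against 0.972 and 1.03 in vehicle libraries, with caffeine replicate 3 lowest and caffeine replicate 1 highest. Troponin C over troponin I was 0.655, 0.630 and 0.551 in caffeine, against 0.669 and 0.583 in vehicle. Both ratios overlapped between the groups.

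Genes whose products work beside troponin also gave 0 calls by edgeR. The thin filament partners were actins, tropomyosins and other proteins that bind actin. Among 14 tested, 12 had negative and 2 positive log2 fold changes, with a median of -0.12. The smallest p values belonged to Tpm1 (-0.29, SE 0.14, edgeR adjusted p = 0.980), the tropomyosin that anchors troponin T, and to Tmod1, the cap of the pointed end, Actc1, the cardiac actin, and Cap2, with log2 fold changes between -0.16 and -0.12. Tpm1 had 2038, 2370 and 2151 CPM in caffeine, against 2928 and 2400 CPM in vehicle. Among 11 thick filament genes, 10 were negative and 1 positive, with a median of -0.23. The positive one was Myh7b, a myosin heavy chain, with 39.9, 31.6 and 37.3 CPM in caffeine, against 13.5 and 18.4 CPM in vehicle (1.19, SE 0.18, edgeR adjusted p = 0.115). The others with the smallest p were the giant scaffold Ttn (-0.72, SE 0.18, edgeR adjusted p = 0.517) and the light chains Myl4 (-0.26) and Myl2 (-0.30).

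Genes that act on troponin genes or proteins gave mixed signs. Of 13 transcription factors known to drive cardiac muscle genes, 10 were positive and 3 negative, with a median of 0.13 and 0 calls by edgeR. The smallest p belonged to Mef2d (0.30, SE 0.15), Tbx20 (0.22), Srf (0.20) and Hand1 (0.20), each with an edgeR adjusted p of at least 0.982. Of 13 splicing regulators linked to troponin T exons, 9 were positive and 4 negative, with a median of 0.04 and 0 calls. Mbnl3 (-0.26), Rbm25 (-0.24), Mbnl1 (0.19) and Rbm24 (0.16) had the smallest p. Of 17 kinases and phosphatases of troponin I, 9 were negative and 8 positive, with 0 calls, and Prkcd (0.24), Prkce (-0.22), Pak1 (-0.25) and Tnni3k (0.38) had the smallest p.

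Markers of the cell types that a ventricle pool could hold were also read. Of 15 cardiomyocyte markers, 12 were negative and 3 positive, with a median of -0.20 and 0 calls by edgeR. Their summed level was 40126 to 40851 CPM in caffeine libraries, against 48442 and 44475 CPM in vehicle libraries, with no overlap. Actc1 and Myh7 weigh most in that sum. Taken singly, 7 of the 15 markers were below both vehicle libraries in every caffeine library (9.27% of all genes). The rest, Actc1 among them, overlapped. These markers are not independent of each other. The smallest p values belonged to Ttn, Ryr2, the calcium release channel (-0.51, SE 0.15, edgeR adjusted p = 0.701), Myl4 and Myl2. Of 23 skeletal muscle markers, the source in which Tnnt3, Tnni2 and Tnnc2 are best known, 21 were in the table and 10 could be tested, 6 negative and 4 positive. Their sum was 84.96, 124 and 130 CPM in caffeine, against 137 and 116 CPM in vehicle, most of it Myl1 and Mylpf, fast myosin light chains. The smallest p values belonged to the calcium pump Atp2a1 (-0.72, SE 0.34), the acetylcholine receptor subunit Chrng (0.53, SE 0.32), Mylpf (-0.40, SE 0.34) and Myl1 (-0.14, SE 0.17), so the signs were mixed. Atp2a1 had 0.831, 1.504 and 1.18 CPM in caffeine, against 1.94 and 1.91 CPM in vehicle. Chrng had 1.87, 2.97 and 2.31 CPM in caffeine, against 1.61 and 1.69 CPM in vehicle. Both were without overlap, in opposite directions. Over all genes, 9.27% were lower and 11.2% higher in caffeine without overlap. Mylpf had 12.4, 25.5 and 25.7 CPM in caffeine, against 33.2 and 22.6 CPM in vehicle, which overlap. Erythroid markers (10 positive and 2 negative of 12) summed to between 8685 and 13681 CPM in caffeine and to 14223 and 8202 CPM in vehicle, which overlap. Smooth muscle (3 negative of 7), endothelial (8 of 10) and epicardial markers (1 of 7) had medians of 0.01, -0.10 and 0.18. Foregut and hepatic markers, negative in 7 of 7, had a sum of 7.63 to 39.4 CPM in caffeine, against 8.03 and 120 CPM in vehicle, high in vehicle replicate 2 and not in replicate 1. The part of these cell types in the troponin values was not tested.

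Of the 8 members, 6 lie in 3 pairs of a troponin I and a troponin T gene. Tnni1 and Tnnt2 are 25344 bases apart on chromosome 1 with Lad1 between them, Tnnt1 and Tnni3 are 2332 bases apart on chromosome 7 with no gene of the table between them, and Tnni2 and Tnnt3 are 54430 bases apart on chromosome 7 with Lsp1 between them. The genes in between had other levels: Lad1 had 1.91, 1.68 and 1.95 CPM in caffeine, against 2.43 and 2.32 CPM in vehicle (log2 fold change -0.36, SE 0.29). Lsp1 had 32.9, 37.3 and 41.0 CPM in caffeine, against 40.0 and 42.6 CPM in vehicle (-0.16, SE 0.14). Nisch, next to Tnnc1, had a log2 fold change of 0.06 (SE 0.12). None of the neighbours that could be tested passed FDR 0.05 by edgeR, their adjusted p being at least 0.941. The 2 genes of the closest pair differed in the place of caffeine replicate 1, which was highest for Tnnt1 but below both vehicle libraries for Tnni3. The other libraries came in the same order for both genes, from vehicle replicate 1 down to caffeine replicate 3.

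RefSeq promoter windows (GRCm38.p6, 250 bases before to 50 after the start site) were available for 6 members. They were searched on both strands for 3 motifs: CATTCC, the M-CAT core bound by TEAD factors, GATAA, bound by GATA factors, and TATAAA, a form of the TATA box. Only these exact letters were searched, so other forms of each motif are not marked. The 250 bases before the start are shown for the 3 members with a match there, with the matches in capitals.
Tnnt2, chr1:135836084-135836333, plus strand: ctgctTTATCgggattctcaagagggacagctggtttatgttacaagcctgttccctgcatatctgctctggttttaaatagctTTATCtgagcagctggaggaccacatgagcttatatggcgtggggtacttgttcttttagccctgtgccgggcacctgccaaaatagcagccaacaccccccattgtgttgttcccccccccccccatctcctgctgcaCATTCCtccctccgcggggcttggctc
Tnnc1, chr14:31208062-31208311, plus strand: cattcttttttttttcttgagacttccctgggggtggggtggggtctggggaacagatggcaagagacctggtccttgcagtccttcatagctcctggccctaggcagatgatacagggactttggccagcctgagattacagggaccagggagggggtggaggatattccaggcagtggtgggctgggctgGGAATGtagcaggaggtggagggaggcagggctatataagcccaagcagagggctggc
Tnnt1, chr7:4515976-4516225, minus strand: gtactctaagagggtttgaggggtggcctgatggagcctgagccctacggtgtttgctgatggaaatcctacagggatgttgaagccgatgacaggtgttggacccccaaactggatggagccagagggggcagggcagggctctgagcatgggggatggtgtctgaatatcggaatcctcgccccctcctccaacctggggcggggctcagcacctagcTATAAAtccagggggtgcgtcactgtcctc
Tnnt2 held CATTCC at bases -27 to -22 from its start and GATAA on the other strand at -245 to -241 and -166 to -162. Tnnc1 held CATTCC on the other strand at -58 to -53, and Tnnt1 held TATAAA at -30 to -25. In Tnni3, whose RefSeq start lies 85 bases from the start in the gene table, GATAA occurred on the other strand at bases 18 to 22 and 25 to 29 past the start. Tnni1 and Tnnc2 held none of the 3. Of all 32851 windows, 14.7% held CATTCC, 25.4% GATAA and 13.6% TATAAA, so each is common, and the matches are descriptions of these letters.

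The genes whose values over the 5 libraries were nearest to each abundant member included a sarcomere gene, Myl2, beside genes of other functions. Nearness was the root mean square (RMS) difference of log2 CPM after centring each gene, over 6221 abundant candidates. The share of sarcomere genes among the candidates was not counted. Nearest to Tnnt2 was Myl2, the ventricular myosin light chain, at an RMS difference of 0.07, followed by Fundc2 and Wbp5. Myl2 had 4343, 4025 and 3237 CPM in caffeine, against 5147 and 4397 CPM in vehicle, the same order of libraries as Tnnt2 except that vehicle replicate 2 also lay above every caffeine library. Nearest to Tnni1 were Pnp, Ap2m1 and Anapc11, and nearest to Tnnc1 were the ribosomal protein gene Rps9 and the mitochondrial genes Ndufb11 and Atp5o. Nearest to Tnni3 were Rplp2-ps1, Rps14 and Rpl9, which are ribosomal protein genes or a pseudogene of one. These near values are a description over 5 libraries.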

How the data were processed

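RNA libraries were made with a TruSeq RNA kit, per the labels' protocols. TopHat and Partek, with no version, and the build mm10 (GRCm38) are named in the submitters' processing notes. The authors deposited estimated counts per gene and per transcript, which need not be whole and were not scaled between libraries. They were rounded to whole numbers here. Genes were filtered with filterByExpr, scaled by TMM (factors 0.970 to 1.02) and tested with edgeR 4.0.16 in R 4.3.3 (glmQLFit with robust = TRUE, glmQLFTest, two-sided, Benjamini-Hochberg over all features tested). The common biological coefficient of variation was 0.145. Lengths were those of the longest matched GENCODE M21 transcript. Shares were compared by exact permutation over libraries in Python 3.11.15. Alternatives used other scalings and filters, DESeq2 1.42.0, limma-voom (limma 3.58.1), no robust estimation, Ensembl counts, a replicate block and each library left out. The edgeR gene, transcript and usage steps were run on simulated data with planted changes larger than any fitted for a troponin gene. That run does not show whether changes of the size fitted for the troponin genes would be found. Gene ends are the deposited stop minus 1, since 5906 of 8552 genes with the RefSeq start had a stop 1 base past the RefSeq end.

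All members were reported whatever their result. Their tested transcripts all enter the counts given, but single values are not given for every transcript, as for those of Tnnt3. Of each list, up to 4 tested genes with the smallest p were named, and for the 4 most abundant members the 3 genes nearest in pattern. Of the genes beside each member, Lad1, Lsp1, Nisch and Gm14492 are named, chosen after their values were seen. The members of the smooth muscle, erythroid, endothelial, epicardial and foregut lists are given without gene names, a choice made after their values were seen. Where another gene is named (Myh7, Myod1, Myf5, Myog), it is a defining marker, as is Mylpf. The members and lists were chosen with earlier results of these data known.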

Additional observations from a re-analysis of the deposited data

How the results depend on the processing

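No troponin gene or transcript passed FDR 0.05 in any alternative run, with 0 genes called in each of 15 alternatives and a range of 0 to 0 when 1 library was left out. The members' median log2 fold change, -0.34 in the full fit, ran from -0.51 to -0.19 with 1 library left out. Without vehicle replicate 1, Tnni1 (0.00070), Tnnc1 (0.024) and its transcript NM_009393 (0.030) changed sign, their lowest values being -0.27, -0.48 and -0.48 without vehicle replicate 2. Also reversed were NM_001277903 of Tnnt1 (-0.67 without caffeine replicate 1, -0.19 without vehicle replicate 2, highest 0.58), NM_011618 of Tnnt1 (0.26, 0.14 and 0.05 without caffeine replicate 2, caffeine replicate 3 or vehicle replicate 1, lowest -0.88) and NM_021467 of Tnni1 (-0.085 without vehicle replicate 2, highest 0.46). The cause was not tested. The share of Tnnt1 in troponin T, -0.083 points in the full data, ran from -0.829 to 0.327 points, positive without caffeine replicate 2 (0.253), caffeine replicate 3 (0.327) or vehicle replicate 1 (0.141). Of the other results, 255 gene and transcript values kept their direction and their side of the threshold. Tnnt3 gave no value under the filter of 5 CPM in 2 libraries, and the Tnnc2 share none on Ensembl counts.

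Over all genes, edgeR called 1 gene, against 6 with no low-count filter, 18 by DESeq2, 2 on Ensembl counts and 0 to 18 with 1 library left out. Transcripts called were 0, against 0 to 1 with 1 library left out, and genes with changed usage 89, against 28 by the Simes adjustment and 15 to 53 with 1 library left out. With the replicate number as a replicate block, 52 genes and 9 transcripts were called, none of them a troponin, and the troponin median was -0.21. The deviations of same-numbered libraries from their group means correlated at -0.02 and 0.13 across 13829 genes. Differently numbered libraries gave values from -0.13 to 0.13. Deviations of the 2 vehicle libraries mirror each other, so these values cannot decide whether the numbers pair the samples. With 2 pairs the numbers were not taken to do so. With 3 and 2 libraries a group, exact tests over libraries cannot reach 0.05, and Tnnc2, Tnnt3 and Tnni2 are limited by their counts.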
